A study of Mus musculus with 12 samples.

Results

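The PGC-1 coactivators and the regulators of mitochondrial biogenesis that work with them were measured in mouse striatum as a group of 9 genes, Ppargc1a, Ppargc1b, Esrra, Esrrg, Ppard, Nrf1, Gabpa, Tfam and Sirt1. A probe set counted as a member where the probe table pairs it with 1 of these genes alone, and the brightest probe set over all arrays represented its gene. The group held 9 of 18193 measured genes and 22 of 45037 probe sets, with 5 probe sets for Ppargc1a, 4 for Nrf1 and 1 each for Ppargc1b and Sirt1. One further probe set, 1447902_at, is paired with both Ppard and 1810013A23Rik and was not used.

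The study measured striatal RNA of 12 C57BL/6 mice, 1 Affymetrix array per mouse, to compare a Huntington's disease model with wild type at 2 ages. Q92 mice are HdhQ92/Q92 knock-ins, in which both copies of the mouse Hdh gene (now Htt) carry 92 CAG repeats taken from the human gene, so every cell carries the change. The 4 groups of 3 were wild type at 3 months (1 female and 2 males, 100 to 103 days), Q92 at 3 months (2 females and 1 male, 100 to 103 days), wild type at 18 months (2 females and 1 male, 596 to 604 days) and Q92 at 18 months (2 females and 1 male, 567 to 596 days). Mice are named by group and animal number. All values are log2 signals, so that a difference of 1 is a doubling, and all groups of a comparison are given as mean ± SD or mouse by mouse.

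PGC-1alpha, encoded by Ppargc1a, and its relative PGC-1beta, encoded by Ppargc1b, bind no DNA themselves. They dock on nuclear receptors such as the estrogen-related receptors and on the nuclear respiratory factors. These switch on nuclear genes for mitochondrial proteins, among them Tfam, whose product packages mitochondrial DNA and starts its transcription. In the striatum PGC-1alpha is known for its link to Huntington's disease, since mice without it develop striatal lesions and mutant huntingtin interferes with the CREB-dependent activation of its gene.

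That wiring is read off promoters, so 3 upstream sequences are shown in which the letters of such a site were found. Each runs 5′ to 3′ on the gene's strand over the 250 bases before the annotated start in RefSeq (GRCm38.p6), and capitals mark the motif. Ppargc1a (chr5:51567726-51567975, minus strand) holds CGTCA, the reverse complement of the CRE core TGACG, at bases -49 to -45. Tfam (chr10:71238045-71238294, minus strand) holds the GABP-type ETS motif CCGGAAG at -47 to -41, and Gabpa itself (chr16:84834874-84835123, plus strand) holds its reverse complement at -93 to -87.
Ppargc1a: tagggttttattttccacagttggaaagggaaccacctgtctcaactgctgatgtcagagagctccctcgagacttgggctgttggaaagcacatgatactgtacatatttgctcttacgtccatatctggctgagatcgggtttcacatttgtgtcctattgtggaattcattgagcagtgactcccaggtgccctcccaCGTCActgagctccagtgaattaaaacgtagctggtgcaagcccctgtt
Tfam: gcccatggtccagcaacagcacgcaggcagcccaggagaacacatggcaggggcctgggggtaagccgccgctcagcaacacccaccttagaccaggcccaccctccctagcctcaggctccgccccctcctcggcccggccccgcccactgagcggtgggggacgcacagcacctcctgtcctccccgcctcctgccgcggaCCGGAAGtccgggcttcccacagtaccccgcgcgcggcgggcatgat
Gabpa: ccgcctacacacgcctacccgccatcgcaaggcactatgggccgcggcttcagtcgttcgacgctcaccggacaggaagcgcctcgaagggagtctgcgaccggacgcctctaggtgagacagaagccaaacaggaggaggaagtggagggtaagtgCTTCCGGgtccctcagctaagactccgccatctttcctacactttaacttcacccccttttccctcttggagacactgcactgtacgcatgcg
Sequences were found for 8 of the 9 genes, all but Ppargc1b, with 12 upstream windows in all. The search covered both strands for TGACG, the full CRE TGACGTCA (which contains that core), CCGGAAG, the NRF1 palindrome with a free or a fixed middle base, and the estrogen-related receptor motif TNAAGGTCA. TGACG was in 2 of the 12 windows, those of Ppargc1a and Sirt1, and in 17.8% of all 32851 windows of this length. CCGGAAG was in 2 of 12, against 6.91% of all windows. The other motifs were in 0 of 12, against 1.55% for the full CRE, 3.74% and 0.782% for the free and fixed NRF1 palindrome, and 1.14% for the receptor motif. A match describes the letters only, and nothing here measures binding.

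Across the arrays, pairwise correlations ran from 0.983 to 0.995, and the mean correlation was lowest in mouse wt_3m_467 (0.987) and mouse Q92_18m_66 (0.988). The 18S ribosomal RNA control probe set that later served as a covariate varied from 5.28 to 11.2, highest in mouse Q92_3m_466. The other 18S control probe sets varied less, from 6.514 to 8.012 and from 4.982 to 6.825. Striatal projection neuron markers, 11 of 12 listed ones measured, averaged 10.65 to 11.05 in the 3-month mice and 10.66 to 10.83 in wild type at 18 months, as fits the labelled tissue, but 9.38 to 10.22 in Q92 at 18 months. In bulk tissue, fewer cells of a type and less RNA per cell cannot be told apart. The Htt probe set gave a Q92 minus wild-type difference of 0.30 (SE 0.10, limma adjusted p = 1.00) at 3 months and 0.10 (SE 0.10, adjusted p = 0.883) at 18 months, which is no check of the labels.

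No member passed the test in any comparison. Over all 22 probe sets and 5 comparisons there were 110 tests, 0 of them with a limma adjusted p under 0.05 and 14 with an unadjusted p under 0.05. Of all probe sets, 2.64% to 10.6% had an unadjusted p under 0.05, depending on the comparison. The 110 tests are not separate, since probe sets share genes and the comparisons share mice. The brightest probe sets differed between genotypes by -0.36 to 0.21 at 3 months and by -0.32 to 0.060 at 18 months. The 95% confidence interval lay within a log2 difference of 1 either way for 9 of 9 genes at 3 months and for 8 of 9 at 18 months, Esrrg being the exception.

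**Figure D1:**
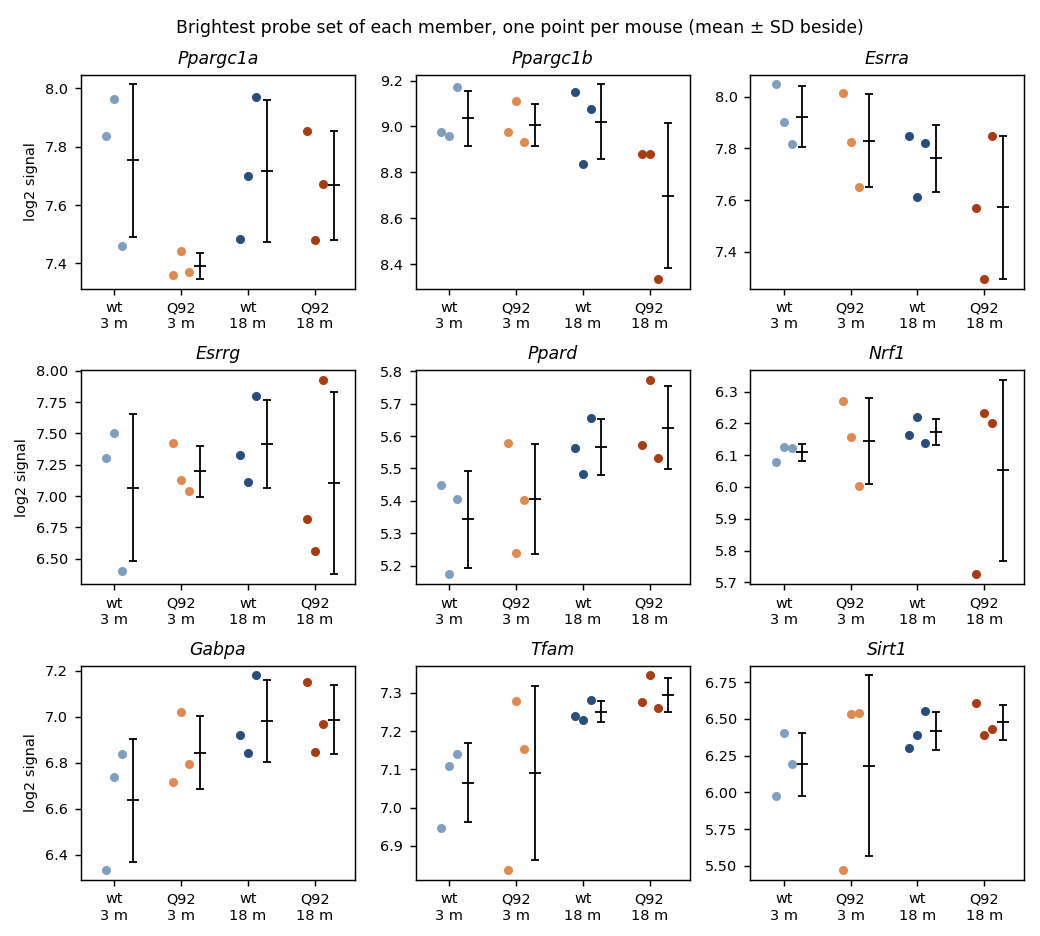
Log2 signal (y axis, a separate scale in each panel) of the brightest probe set of the 9 members, with 1 point per mouse and the mean ± SD of each group of 3 beside the points. In Ppargc1a the 3 Q92 mice at 3 months, at 7.36 to 7.44, lie below all 3 wild-type mice of that age, and in the other panels Q92 and wild-type mice of the same age overlap.

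At 3 months, Q92 mice were compared with wild type before the projection neuron markers differed (median difference over the 11 markers -0.019). The sexes differed between these groups (1 female of 3 in wild type, 2 of 3 in Q92). Here 0 of 22 member probe sets were called, against 0.0111% of all probe sets, and 2 of 22 had an unadjusted p under 0.05, against 2.64% of all. Both were of Ppargc1a. Among the brightest probe sets, 5 members were higher and 4 lower in Q92, with a median difference of 0.024 against -0.019 over all genes, and 1 of 9 showed groups that do not overlap, against 6.64% of all genes.

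Ppargc1a encodes PGC-1alpha, the coactivator induced by cold, exercise and energy demand. Its brightest probe set, 1456395_at, read 7.83, 7.96 and 7.46 in wild type at 3 months (mice wt_3m_436, wt_3m_438 and wt_3m_467, an order kept throughout) and 7.36, 7.44 and 7.37 in Q92 at 3 months (mice Q92_3m_439, Q92_3m_440 and Q92_3m_466). All 3 Q92 mice lay below all 3 wild-type mice, and mouse wt_3m_467 lay close to them. The difference was -0.36 (SE 0.15, 95% interval -0.69 to -0.034), 1.28-fold lower in Q92, with a limma adjusted p of 1.00. It was -0.51 without mouse wt_3m_467, which also did not pass (adjusted p = 1.00).

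At 18 months the same probe set read 7.48, 7.70 and 7.97 in wild type (mice wt_18m_9, wt_18m_12 and wt_18m_17) and 7.85, 7.48 and 7.67 in Q92 (mice Q92_18m_11, Q92_18m_25 and Q92_18m_66). The groups overlapped throughout, and the difference was -0.049 (SE 0.15, 95% interval -0.37 to 0.28, adjusted p = 0.977). The difference at 18 months minus that at 3 months was 0.31 (SE 0.21, adjusted p = 0.950), so the 2 ages were not shown to differ. From 3 to 18 months the difference was -0.035 in wild type (adjusted p = 0.949) and 0.28 in Q92 (SE 0.15, adjusted p = 0.562), where all 3 older mice lay above all 3 younger ones. In order, the group means were 7.39 ± 0.04 in Q92 at 3 months, 7.67 ± 0.19 in Q92 at 18 months, 7.72 ± 0.24 in wild type at 18 months and 7.75 ± 0.26 in wild type at 3 months, and the last 3 lie within their own spread.

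The 5 Ppargc1a probe sets fell into a pair and a trio that did not give the same picture. Over the 12 mice, which share groups and arrays, 1456395_at followed 1460336_at (Pearson r = 0.876), and 1434099_at, 1434100_x_at and 1437751_at followed one another (r from 0.870 to 0.916). Between the pair and the trio r ran from 0.308 to 0.642 (6 comparisons of probe sets). For the other members with several probe sets, 13 such correlations ran from -0.583 to 0.336. Within the trio, 1434099_at and 1434100_x_at were designed on 1 source sequence.

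The lower signal in young Q92 mice, without overlap, was in the pair. The pair and the trio were formed by correlation over mice that include these. That the lower signal lay in the pair is therefore partly set by the grouping and is no separate result. Probe set 1460336_at read 6.78, 6.74 and 6.23 in wild type and 6.05, 6.03 and 6.11 in Q92 at 3 months, with no overlap and mouse wt_3m_467 again nearest to Q92. The difference was -0.52 (SE 0.14, 95% interval -0.82 to -0.21), 1.43-fold lower, with a limma adjusted p of 1.00. Without mouse wt_3m_467 it was -0.69 (adjusted p = 0.461). At 18 months this probe set read 6.58, 6.61 and 6.90 in wild type and 6.49, 6.27 and 6.36 in Q92, again with no overlap, a difference of -0.32 (SE 0.14, adjusted p = 0.615). At 3 months the genotype difference in the trio was -0.17 for 1437751_at, -0.076 for 1434099_at and 0.075 for 1434100_x_at. Of these, 1437751_at followed the pair most closely (r = 0.609 and 0.642), so the split was not a clean one. The trio differed by -0.016 to 0.16 at 18 months, and the groups overlapped in each probe set at both ages.

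With age in Q92, probe set 1434099_at read 6.92, 6.84 and 6.90 at 3 months and 7.33, 7.10 and 7.47 at 18 months, a difference of 0.41 (SE 0.12, limma adjusted p = 0.206), the lowest adjusted p of any member probe set in any comparison. All 3 older Q92 mice lay above all 3 younger ones in each of the 5 Ppargc1a probe sets, with differences of 0.28 to 0.41. Of all genes, 17.5% had groups that do not overlap in this comparison, either way and at 1 probe set per gene. The 5 probe sets read the same gene on the same arrays, so they are not separate observations. In wild type the trio differed by 0.18 to 0.34 with age and only 1434100_x_at did not overlap (adjusted p = 0.461), while the pair differed by -0.035 and 0.11.

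**Figure D2:**
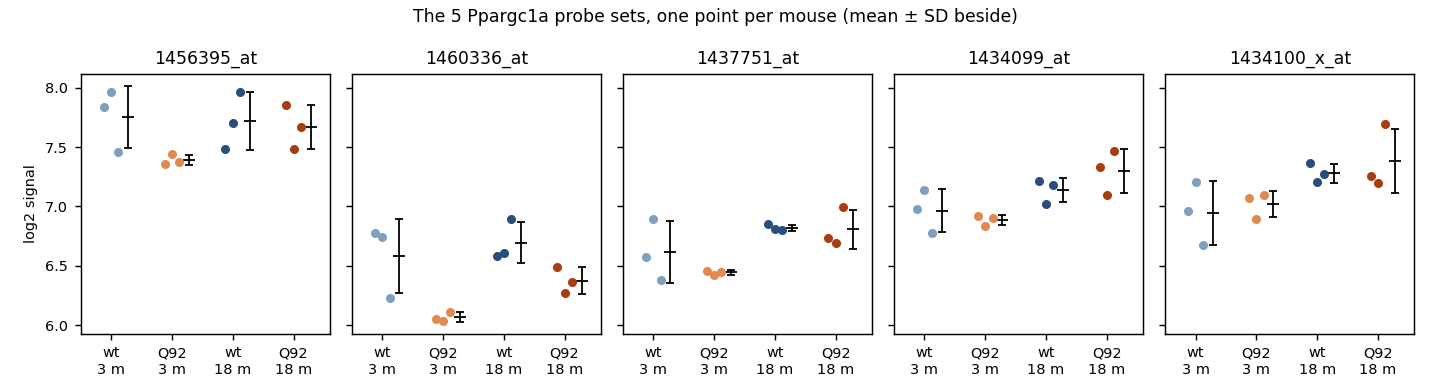
Log2 signal (y axis, shared) of the 5 Ppargc1a probe sets, with 1 point per mouse and the mean ± SD of each group of 3. In 1456395_at and 1460336_at the Q92 mice at 3 months lie below wild type, in the other 3 probe sets those groups overlap, and in all 5 the Q92 mice at 18 months lie above those at 3 months.

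Ppargc1a lies on the chromosome of Htt, with 77 measured genes between them, and no other member does. Whether its position has a part in these values was not tested.

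Ppargc1b encodes PGC-1beta, which supports basal mitochondrial content, and is read by 1 probe set, 1449945_at. At 3 months it read 8.97, 8.96 and 9.17 in wild type and 8.98, 9.11 and 8.93 in Q92, fully overlapping (difference -0.030, SE 0.14). At 18 months it read 9.15, 8.84 and 9.08 in wild type and 8.88, 8.88 and 8.34 in Q92. Mouse Q92_18m_66 was far the lowest of the 12, and the other Q92 mice lay just above the lowest wild-type mouse.

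At 18 months, where projection neuron markers were lower in Q92 (11 of 11, median difference -0.88, with 1 past the test), 0 of 22 member probe sets were called, against 0.0533% of all probe sets. An unadjusted p under 0.05 was reached by 4 of 22, against 7.90% of all, and 0 of the 9 brightest had groups that do not overlap, against 14.0% of all genes. Among these 4 members were higher and 5 lower in Q92, with a median difference of -0.049 against -0.0014 over all genes.

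Ppargc1b gave the most negative difference of the brightest probe sets at this age, -0.32 (SE 0.14, 95% interval -0.64 to -0.0084, limma adjusted p = 0.624). It was -0.14 without mouse Q92_18m_66 and -0.078 with age in days as a block, which leaves only mouse Q92_18m_11 against mice wt_18m_12 and wt_18m_17. Against 3 months, Ppargc1b in Q92 differed by -0.31 (SE 0.14, adjusted p = 0.482), with no overlap, and by -0.13 without mouse Q92_18m_66. The projection neuron marker mean was 9.95, 10.22 and 9.38 in the 3 Q92 mice, so mouse Q92_18m_66 was the lowest in both. In its group that mouse was also lowest for cortical markers (6.05). It was highest for thalamic and pallidal (7.32), interneuron (7.71), microglial (7.89), astrocyte (9.63) and oligodendrocyte markers (10.28). For choroid plexus (5.39) and vascular markers (6.63) it lay between the other mice of its group. The part of any of these marker values in the Ppargc1b values was not tested.

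The genes with the profile most like Ppargc1b over the 12 mice were Caln1, a neuronal calcium-binding protein (r = 0.974), and Kcnk2, a potassium channel (r = 0.957), both also lowest in mouse Q92_18m_66 (9.99 and 8.14). They were the closest of 12761 genes compared, given as a description. Kcnk2 differed by -0.72 between genotypes at 18 months (SE 0.25, adjusted p = 0.484).

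**Figure D3:**
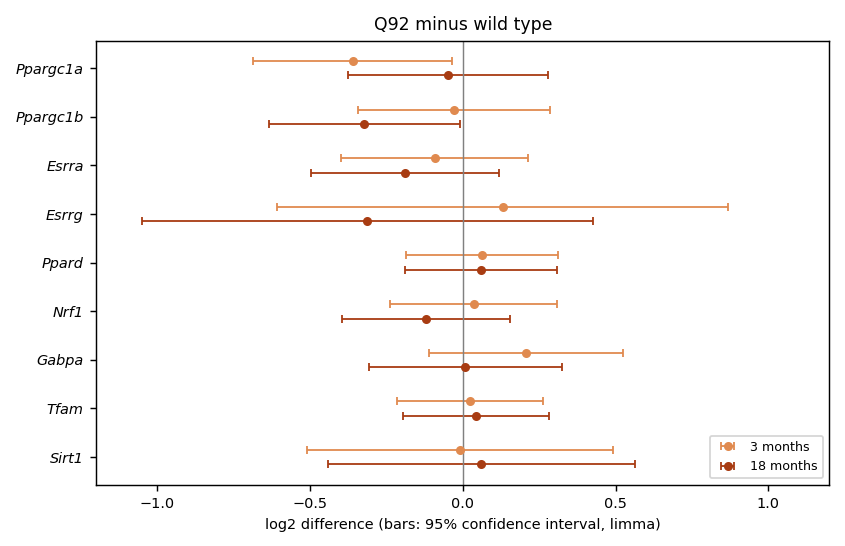
Q92 minus wild-type log2 difference (x axis) of the 9 members' brightest probe sets at 3 and at 18 months, with limma's 95% confidence interval as bars, from 3 mice per group. The interval leaves out 0 for Ppargc1a at 3 months and Ppargc1b at 18 months, both before adjustment for the probe sets tested, and it is widest for Esrrg.

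The nuclear receptors came next. Esrra encodes ERRalpha, a main partner of PGC-1alpha on genes of oxidative phosphorylation. It read 8.05, 7.90 and 7.82 in wild type and 8.01, 7.83 and 7.65 in Q92 at 3 months, and 7.85, 7.61 and 7.82 in wild type and 7.57, 7.30 and 7.85 in Q92 at 18 months. The genotype difference was -0.093 (SE 0.14) at 3 months and -0.19 (SE 0.14, 95% interval -0.50 to 0.12, adjusted p = 0.814) at 18 months, with overlap at both. With age the difference was -0.16 in wild type and -0.26 in Q92 (adjusted p = 0.701 and 0.564), so the means of both genotypes were lower at 18 months without passing the test. The second Esrra probe set, 1442864_at, differed by -0.059 to 0.088 in the 5 comparisons.

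Esrrg encodes ERRgamma, a related receptor found in highly oxidative cells, and its brightest probe set had the largest SE of the 9. Its brightest probe set, 1455267_at, read 7.30, 7.50 and 6.40 in wild type and 7.43, 7.13 and 7.04 in Q92 at 3 months. At 18 months it read 7.33, 7.12 and 7.80 in wild type and 6.82, 6.56 and 7.93 in Q92. The lowest mouse of all was wt_3m_467 and the highest Q92_18m_66, and the groups overlapped at both ages.

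The Esrrg difference at 18 months was -0.31 (SE 0.34, 95% interval -1.05 to 0.43, adjusted p = 0.901) and -0.73 without mouse Q92_18m_66. At 3 months it was 0.13 (SE 0.34) and -0.20 without mouse wt_3m_467, so 1 mouse set its sign. A second probe set, 1457896_at, had tighter groups, with 5.60 ± 0.12 and 5.80 ± 0.05 in wild type and Q92 at 3 months and 6.02 ± 0.25 and 5.68 ± 0.16 at 18 months (SD, n = 3). Its genotype difference was 0.21 at 3 months, without overlap, and -0.34 at 18 months (SE 0.13, limma adjusted p = 0.535). The change with age of that difference was -0.54 (SE 0.18, limma adjusted p = 0.946) and did not pass. With age in days as a block, which leaves mouse Q92_18m_11 against mice wt_18m_12 and wt_18m_17, the 18-month difference was -0.010. Over the 12 mice both probe sets had r = 0.108 with each other, and the third, 1421747_at, lay at or below the 40th percentile of all probe sets.

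The brightest Esrrg probe set, 1455267_at, moved across the mice with a marker of parvalbumin neurons. This holds for that probe set only, since 1457896_at had r = 0.108 with it. Pvalb is the calcium buffer of fast-spiking interneurons and of many pallidal and some thalamic neurons. It was the gene most like Esrrg (r = 0.960 over 12 mice), followed by Cd81, a membrane tetraspanin (r = 0.913). Both were picked as the highest of 12761 genes compared, so a high r is partly set by that choice. Pvalb read 9.06, 9.41 and 7.29 in wild type and 9.48, 8.14 and 8.39 in Q92 at 3 months, and 9.06, 8.94 and 9.81 in wild type and 8.19, 7.99 and 10.52 in Q92 at 18 months. The lowest and the highest mouse were the same as for Esrrg.

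The mean of the 8 thalamic and pallidal markers was 7.32 in mouse Q92_18m_66 against 5.31 and 5.61 in the other Q92 mice of that age, and 5.43 in mouse wt_3m_467 against 6.51 and 6.48 in its group. The 11 interneuron markers averaged 7.71 in mouse Q92_18m_66, the highest of its group, and 6.95 in mouse wt_3m_467, the lowest of its group. Pvalb is itself among these 11 markers, so their mean is not separate from the Pvalb values. Calb2 is in both lists, so both marker means are not separate from each other either. In wild type at 18 months the thalamic and pallidal markers averaged 5.45, 7.19 and 6.96, an order that Esrrg (7.33, 7.12 and 7.80) did not share. In Q92 at 3 months they averaged 6.57, 5.54 and 6.07, highest in the mouse highest for Esrrg but with the other mice in the opposite order. How much of the Esrrg spread follows what the dissection held was not tested.

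**Figure D4:**
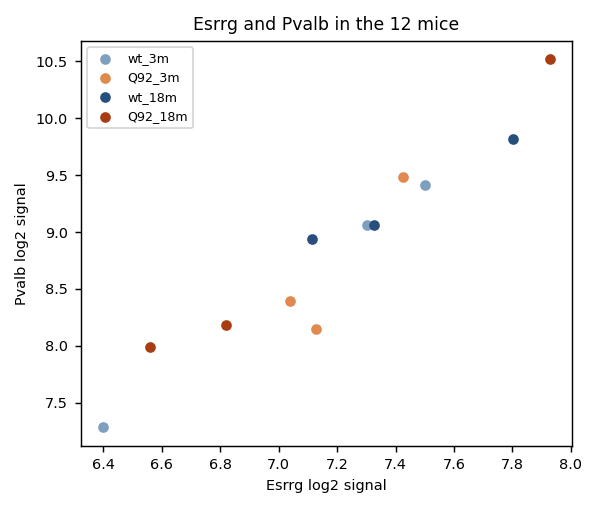
Log2 signal of Pvalb (y axis) against that of Esrrg probe set 1455267_at (x axis) in the 12 mice, with 1 point per mouse coloured by group. The points run from mouse wt_3m_467 at the lower left to mouse Q92_18m_66 at the upper right (Pearson r = 0.960), and each group is spread along that line.

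Ppard encodes PPARdelta, a fatty acid receptor that PGC-1alpha also coactivates. Its brightest probe set, 1439797_at, read 5.45, 5.17 and 5.41 in wild type and 5.58, 5.24 and 5.40 in Q92 at 3 months, and 5.56, 5.48 and 5.66 in wild type and 5.57, 5.77 and 5.53 in Q92 at 18 months. Genotypes overlapped at both ages (difference 0.063 at 3 and 0.059 at 18 months, SE 0.11 for both). The second probe set, 1425703_at, lay at or below the 40th percentile.

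The comparison of 18 with 3 months sets separate mice of 1 genotype side by side. In wild type the sexes also differed (1 female of 3 at 3 months, 2 of 3 at 18), and with sex as a covariate the calls over all probe sets went from 23 to 0. Of the members in wild type, 0 of 22 member probe sets were called, against 0.0511% of all probe sets, and 4 of 22 had an unadjusted p under 0.05, against 10.6%. Groups did not overlap in 4 of the 9 brightest probe sets, against 18.6% of all genes, and all 4 were higher at 18 months, against 9.76% (Ppard, Nrf1, Gabpa and Tfam). The members' median difference was 0.18, against -0.011 over all genes. Beside these, the means of most markers of several cell types were higher in wild type at 18 months, namely microglia (9 of 10, median 0.46), choroid plexus (9 of 9, 0.62), thalamic and pallidal neurons (8 of 8, 0.28) and interneurons (10 of 11, 0.24). The choroid plexus mean was high in mouse wt_18m_12 (7.39), with 4.90 and 4.50 in mice wt_18m_9 and wt_18m_17, against 4.75 to 5.05 at 3 months. The thalamic and pallidal means overlapped, at 5.43 to 6.51 at 3 and 5.45 to 7.19 at 18 months. The microglial markers averaged 7.06 to 7.22 at 3 and 7.51 to 7.95 at 18 months, without overlap. The part of any of these cell types in the member values was not tested. In Q92, 0 of 22 were called, against 0.206%, 3 of 22 had an unadjusted p under 0.05, against 10.6%, and 2 of 9 did not overlap, against 17.5%. Those were Ppargc1a, higher, and Ppargc1b, lower, and the median difference was 0.14, against 0.0076 over all genes. For Ppard the difference with age was 0.22 in wild type (SE 0.11, adjusted p = 0.520) and 0.22 in Q92 (SE 0.11, adjusted p = 0.536).

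**Figure D5:**
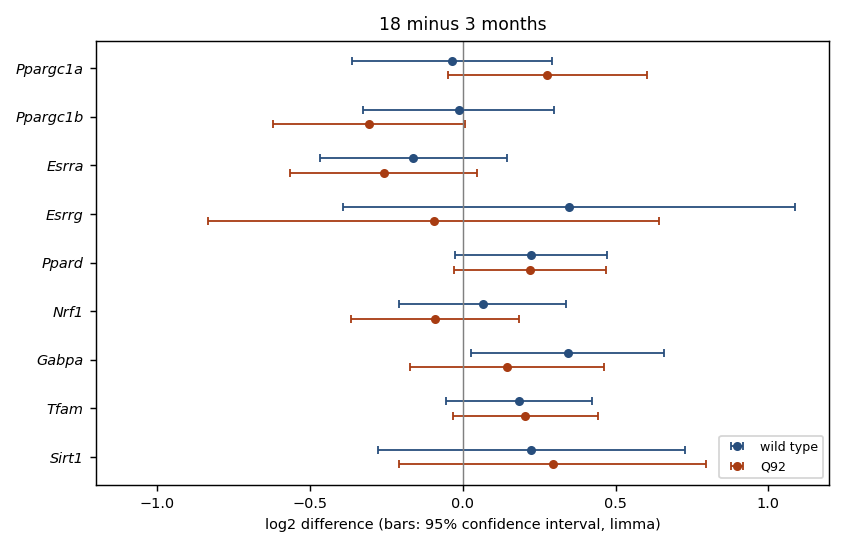
Log2 difference of 18 minus 3 months (x axis) of the 9 members' brightest probe sets in wild type and in Q92, with limma's 95% confidence interval as bars, from 3 mice per group. Of these intervals, that of Gabpa in wild type leaves out 0 before adjustment, and Ppargc1a and Ppargc1b lie to either side of 0 in Q92.

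Of the nuclear respiratory factors, Nrf1 is a DNA-binding activator of respiratory chain genes and Gabpa encodes the DNA-binding subunit of GABP, also called NRF-2. Nrf1 probe set 1434627_at read 6.08, 6.13 and 6.12 in wild type and 6.27, 6.16 and 6.00 in Q92 at 3 months, and 6.16, 6.22 and 6.14 in wild type and 5.72, 6.23 and 6.20 in Q92 at 18 months. Apart from mouse Q92_18m_11 at 5.72, all mice lay between 6.00 and 6.27. The genotype difference was 0.035 (SE 0.13) at 3 months and -0.12 (SE 0.13, 95% interval -0.40 to 0.15, adjusted p = 0.894) at 18 months. In wild type all 3 older mice lay above all 3 younger ones, by 0.065 on average (adjusted p = 0.880).

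A dimmer Nrf1 probe set, 1445914_at, gave differences of opposite sign at 18 months and with age in wild type. It read 6.24, 5.96 and 6.14 in wild type and 5.90, 6.16 and 6.22 in Q92 at 3 months, and 5.76, 5.92 and 5.65 in wild type and 6.18, 6.20 and 5.96 in Q92 at 18 months. Wild-type mice at 18 months had the lowest mean, 5.78 ± 0.14 (SD, n = 3), with a genotype difference of 0.34 (SE 0.12, adjusted p = 0.494) and a difference with age of -0.33 (SE 0.12, adjusted p = 0.379). Over the 12 mice it had r = -0.398 with 1434627_at, and the other Nrf1 probe sets differed by -0.075 to 0.22 in the 5 comparisons.

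Gabpa probe set 1450664_at read 6.33, 6.74 and 6.84 in wild type and 6.72, 7.02 and 6.80 in Q92 at 3 months. At 18 months it read 6.92, 6.84 and 7.18 in wild type and 7.15, 6.85 and 6.97 in Q92. The genotype difference was 0.21 (SE 0.15) at 3 months and 0.0081 (SE 0.15, 95% interval -0.31 to 0.32, adjusted p = 0.997) at 18 months, with overlap at both ages. In wild type the difference with age was 0.34 (SE 0.15, 95% interval 0.026 to 0.66, limma adjusted p = 0.444), where the groups did not overlap but their nearest mice both read 6.84, and it was 0.19 without mouse wt_3m_436. In Q92 it was 0.14 with overlap (adjusted p = 0.796). The second Gabpa probe set, 1450665_at, had r = -0.020 with the first and differed by 0.11 with age in wild type (SE 0.17).

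Tfam encodes the factor that packages mitochondrial DNA and starts its transcription. It read 6.95, 7.11 and 7.14 in wild type and 6.84, 7.28 and 7.15 in Q92 at 3 months, and 7.24, 7.23 and 7.28 in wild type and 7.28, 7.35 and 7.26 in Q92 at 18 months. The 6 older mice lay close together, at 7.25 ± 0.03 in wild type and 7.29 ± 0.05 in Q92 (SD, n = 3). The genotype difference was 0.024 (SE 0.11) at 3 months and 0.044 (SE 0.11, 95% interval -0.19 to 0.28, adjusted p = 0.969) at 18 months. With age it was 0.18 in wild type (adjusted p = 0.577), without overlap, and 0.20 in Q92 (adjusted p = 0.555), where mouse Q92_3m_440 at 7.28 reached the older range. A second probe set, 1456215_at, differed by -0.18 between genotypes at 3 months without overlap (SE 0.09, adjusted p = 1.00).

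Sirt1 encodes a deacetylase that activates PGC-1alpha. Its 1 probe set, 1418640_at, read 5.98, 6.40 and 6.19 in wild type and 5.47, 6.54 and 6.54 in Q92 at 3 months, and 6.30, 6.39 and 6.56 in wild type and 6.61, 6.39 and 6.43 in Q92 at 18 months. Mouse Q92_3m_439 at 5.47 stood apart from its group, and all comparisons overlapped. The genotype difference was -0.0093 (SE 0.23) at 3 months and 0.060 (SE 0.23, 95% interval -0.44 to 0.56, adjusted p = 0.981) at 18 months. With age it was 0.22 in wild type and 0.29 in Q92 (adjusted p = 0.750 and 0.726).

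The genotype difference did not change with age beyond the test in any of the 22 member probe sets (0 called, against 0% of all probe sets), and 1 of 22, Esrrg 1457896_at, had an unadjusted p under 0.05, against 5.18%. For the 9 brightest probe sets this change ran from -0.44 in Esrrg to 0.31 in Ppargc1a, with a median of -0.097 against 0.021 over all genes.

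The genes most like the remaining members over the 12 mice were Dctn4 and Gpr137b for Ppargc1a (r = 0.855 and 0.812), Acly and Tmem41a for Esrra (0.886 and 0.884), and Abca2 and Polk for Ppard (0.906 and 0.906). They were 2310047D07Rik and Snx33 for Nrf1 (r = 0.906 and 0.881), Bloc1s4 and Stxbp4 for Gabpa (0.956 and 0.935), Bcas2 and Luc7l3 for Tfam (0.939 and 0.937), and Tbk1 and Luc7l3 for Sirt1 (0.944 and 0.936). Luc7l3, a splicing factor, stood in both the Tfam and the Sirt1 list. These are the highest values out of 12761 genes and describe these 12 mice.

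The wider pathway was followed in 4 lists, chosen from general knowledge. They hold partners and upstream regulators of PGC-1 (29 of 30 measured), mitochondrial DNA maintenance and transcription (20 of 20), target genes of the nuclear respiratory factors and ERRs (30 of 31), and antioxidant and neuronal genes that depend on PGC-1alpha (19 of 21). None of these genes passed the limma test in either direction in any of the 5 comparisons. At 18 months the lists' median genotype differences were -0.075, -0.046, 0.023 and -0.10 in that order, against -0.0014 over all genes, and 2 genes up and 7 down of 98 had an unadjusted p under 0.05 (9.18%, against 7.90% of all probe sets). At 3 months the medians were 0.0059, 0.0068, 0.0089 and -0.035, with 0 up and 2 down (2.04%, against 2.64%).

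Among the partners and regulators, Foxo1, a transcription factor that PGC-1alpha coactivates, was the furthest down in Q92 at 18 months. It averaged 9.47 ± 0.30 and 9.58 ± 0.17 in wild type and Q92 at 3 months and 9.55 ± 0.11 and 8.83 ± 0.34 at 18 months (SD, n = 3). The genotype difference at 18 months was -0.73 (SE 0.18, limma adjusted p = 0.223), and the difference with age in Q92 was -0.75 (adjusted p = 0.127). Camk4, a calcium-dependent kinase upstream of CREB, differed by -0.81 with age in Q92 (SE 0.24, adjusted p = 0.230). Prkaa2, a catalytic subunit of AMP-activated kinase, was higher on average in Q92 at 18 months by 0.65 (SE 0.23, adjusted p = 0.478). The projection neuron markers were also lower in these Q92 mice, and their part in the Foxo1 and Camk4 values was not tested.

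In wild type with age, Prkaa1, the other catalytic subunit of that kinase, differed by 0.50 (adjusted p = 0.284), and Gabpb1, the partner subunit of Gabpa, by 0.46 (5.45 ± 0.09 against 5.91 ± 0.03, SD, n = 3, adjusted p = 0.277). At 3 months the widest genotype differences in this list were those of Pparg (-0.27, on a dim probe set at 3.40 in wild type and 3.13 in Q92) and Zfp746, a repressor of Ppargc1a (-0.16).

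In mitochondrial DNA maintenance, Primpol, a primase-polymerase, differed by -0.38 at 18 months (SE 0.10, adjusted p = 0.284), near the dim end of the array at 4.52 in wild type, and Dguok, a nucleoside kinase, by -0.29 (SE 0.13, adjusted p = 0.631). With age in Q92, Dguok differed by -0.36 and the protease Lonp1 by -0.26 (adjusted p = 0.347 and 0.365), and with age in wild type Mterf3 and Primpol by 0.32 and 0.27. At 3 months Rnaseh1 differed by 0.25 and the mitochondrial RNA polymerase Polrmt by -0.17 (adjusted p = 1.00 for both).

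Among the target genes, Tomm70a, an import receptor of the outer membrane, averaged 10.79 ± 0.04 in wild type and 10.42 ± 0.17 in Q92 at 18 months, a difference of -0.37 (SE 0.13, adjusted p = 0.484), and differed by -0.49 with age in Q92 (adjusted p = 0.167). Uqcrc2, a core subunit of respiratory complex III, differed by 0.20 between genotypes at 18 months (adjusted p = 0.632) and by 0.31 with age in Q92 (adjusted p = 0.224). In wild type with age Cox7c, a cytochrome oxidase subunit, differed by 0.28 and Mdh2, a Krebs cycle enzyme, by 0.11. At 3 months Cox7c differed by 0.22 and Sdhd, a membrane anchor of complex II, by -0.15 between genotypes (adjusted p = 1.00 for both).

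Among the genes that depend on PGC-1alpha, Syt2, a synaptic calcium sensor of fast-releasing neurons, differed by -0.56 between genotypes at 18 months (SE 0.21, adjusted p = 0.512) and Pvalb by -0.37 (SE 0.66, adjusted p = 0.951). With age in wild type, Pvalb differed by 0.68 and the neurofilament Nefh by 0.65, and in Q92 Nefh by 0.36 and Pdk4, a kinase that restrains pyruvate oxidation, by 0.35 (adjusted p = 0.805 and 0.518). At 3 months Txnrd2, the mitochondrial thioredoxin reductase, differed by -0.35 and Mfn2, an outer membrane fusion protein, by 0.16 (adjusted p = 1.00 for both). Markers of thalamic and pallidal neurons varied between mice, and their part in the Pvalb and Nefh values was not tested.

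For the shift of the genotype difference between ages, the widest values of the 4 lists were -0.83 for Foxo1 and -0.57 for Camk4, -0.51 for Primpol and 0.33 for Mgme1, a mitochondrial exonuclease, -0.51 for Tomm70a and 0.34 for Uqcrc2, and -0.48 for Syt2 and -0.46 for Pvalb. Their adjusted p ran from 0.900 upward, so for none of them was the 18-month difference shown to depart from that at 3 months.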

How the data were processed

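Total striatal RNA of 12 mice was biotin-labelled and hybridised to Affymetrix mouse expression arrays, 1 per mouse. The authors deposited 1 log2 signal for each probe set, made with RMA and the affy package per the submitters' processing notes, whose versions are not given. RMA equalises arrays, so differences are relative to the other genes of an array. Values were used as deposited, and array data give no read depth, so the 3 arrays per group limit the precision.

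One mean per group was fitted to all 12 arrays with limma 3.58.1 in R 4.3.3 (8 residual and 4.50 prior degrees of freedom), with Benjamini-Hochberg adjustment over 45037 probe sets and a threshold of 0.05; 64 control probe sets were left out. The fit was tested on simulated data. Gene names came from the platform's probe table. Named genes were all members, the 2 furthest from 0 of each pathway list in each comparison where none passed, and the 2 most correlated genes of each member above the 40th percentile of signal (4.27). Marker lists cover projection neurons, interneurons, cortical, thalamic and pallidal neurons, astrocytes, microglia, oligodendrocytes, choroid plexus and vascular cells. The members and lists were chosen with earlier results of these data known. Alternatives were quantile normalisation, median shift, a filter on dim probe sets, an intensity trend with a robust prior, sex, 18S control or age in days as covariates, the mean of all probe sets, only the arrays compared, and leaving out arrays.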

Additional observations from a re-analysis of the deposited data

Results flagged for a closer look

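Uqcrc2, a core subunit of respiratory complex III, had genotype differences of opposite direction at the 2 ages, each measured in separate mice. At 3 months all 3 Q92 mice lay below all 3 wild-type mice (10.22 ± 0.04 against 10.37 ± 0.04, SD, n = 3). At 18 months the 3 older Q92 mice lay above the 3 older wild-type mice (10.53 ± 0.15 against 10.34 ± 0.08). The difference at 18 months minus that at 3 months was 0.34 (SE 0.13, limma adjusted p = 0.946) and did not pass the test. Uqcrc2 was the 1 case flagged of 47 checked, but opposite signs alone also occurred in other genes. Tomm70a, for example, averaged 10.77 in wild type and 10.92 in Q92 at 3 months, and 10.79 and 10.42 at 18 months. Groups did not overlap for 6.64% of all genes at 3 months and 14.0% at 18 months.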

How the results depend on the processing

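No paired analysis was possible because the animal numbers are not shared between groups, and ages in days, shared only in part, served as a block instead. The settings were run for the brightest probe sets and for other member probe sets with an unadjusted p under 0.05 in the main fit. The remaining member probe sets were not recomputed one by one. No recomputed member value passed under any setting. Of 1215 such values 0 came past the threshold, 1121 kept their direction and 94 turned sign. The lowest limma adjusted p was 0.116 (Ppargc1a 1434099_at, 18 against 3 months in Q92, 18S control as a covariate). Leaving out both arrays of lowest correlation was chosen after seeing the data. The values that changed sign are listed here, and the cause was not tested.

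With age in days as a block, the genotype difference at 18 months was 0.019 for Ppargc1a, and its change between ages was -0.0029 for Tfam and -0.053 for Ppargc1a 1434100_x_at. With the mean over each gene's probe sets, the genotype difference at 18 months was -0.032 for Ppard, 0.066 for Nrf1, -0.025 for Gabpa and -0.0045 for Tfam, the genotype difference at 3 months was -0.030 for Nrf1 and -0.080 for Tfam, its change between ages was 0.095 for Nrf1, the age difference in wild type was 0.16 for Ppargc1a and -0.054 for Nrf1, and the age difference in Q92 was 0.041 for Nrf1. With a common array median, the genotype difference at 18 months was -0.0033 for Gabpa, and the age difference in wild type was 0.0016 for Ppargc1b. With the 18S control, the genotype difference at 18 months was -0.12 for Sirt1 and -0.027 for Ppargc1a 1434100_x_at, the genotype difference at 3 months was 0.050 for Ppargc1b, -0.033 for Esrrg and -0.037 for Ppargc1a 1434100_x_at, its change between ages was 0.0052 for Ppard, the age difference in wild type was 0.023 for Ppargc1a, and the age difference in Q92 was 0.014 for Esrrg. Without both arrays, the genotype difference at 18 months was -0.051 for Ppargc1a 1434100_x_at, the genotype difference at 3 months was 0.039 for Ppargc1b, -0.20 for Esrrg and -0.062 for Ppargc1a 1434100_x_at, its change between ages was 0.011 for Ppard and -0.00066 for Tfam, the age difference in wild type was 0.054 for Ppargc1b and -0.066 for Ppargc1a 1460336_at, and the age difference in Q92 was -0.043 for Nefh. With sex as a covariate, the genotype difference at 3 months was -0.017 for Esrrg, -0.020 for Nrf1, 0.022 for Sirt1 and 0.043 for Nrf1 1445914_at. With quantile normalisation, its change between ages was 0.011 for Ppard, and the age difference in Q92 was -0.00074 for Nrf1 1445914_at.

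Leaving out each array in turn, these values crossed 0. The genotype difference at 18 months ran from -0.17 to 0.077 for Ppargc1a, -0.015 to 0.10 for Ppard, -0.21 to 0.043 for Nrf1, -0.073 to 0.11 for Gabpa, -0.0055 to 0.13 for Sirt1, -0.051 to 0.20 for Ppargc1a 1434100_x_at, -0.11 to 0.043 for Ppargc1a 1437751_at and -1.18 to 0.080 for Pvalb. The genotype difference at 3 months ran from -0.081 to 0.039 for Ppargc1b, -0.20 to 0.35 for Esrrg, -0.023 to 0.15 for Ppard, -0.029 to 0.11 for Nrf1, -0.070 to 0.15 for Tfam, -0.19 to 0.35 for Sirt1, -0.098 to 0.078 for Nrf1 1445914_at, -0.062 to 0.20 for Ppargc1a 1434100_x_at and -0.17 to 0.0088 for Ppargc1a 1434099_at. Its change between ages ran from -0.24 to 0.041 for Esrra, -0.088 to 0.082 for Ppard, -0.25 to 0.0081 for Nrf1, -0.11 to 0.11 for Tfam, -0.29 to 0.25 for Sirt1, -0.13 to 0.17 for Ppargc1a 1434100_x_at and -1.27 to 0.19 for Pvalb. The age difference in wild type ran from -0.18 to 0.081 for Ppargc1a, -0.078 to 0.078 for Ppargc1b and -0.066 to 0.21 for Ppargc1a 1460336_at. The age difference in Q92 ran from -0.51 to 0.18 for Esrrg, -0.18 to 0.073 for Nrf1, -0.061 to 0.47 for Sirt1, -0.074 to 0.10 for Nrf1 1445914_at and -0.043 to 0.64 for Nefh.

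The background of all probe sets called was less stable. From 24 at 18 months it moved to 45 with the intensity trend, 8 with the 18S control, 11 with the arrays compared, 4 with the age block and 54 without both arrays, and to 9 to 25 leaving out 1 array. From 5 at 3 months it moved to 3 with the 18S control, 1 with the arrays compared, 2 with the age block and 3 without both arrays, and to 1 to 4 leaving out 1 array. From 0 for the change with age it moved to 3 with the trend, 2 with the mean of probe sets and 1 with the age block, and to 0 to 3 leaving out 1 array. From 23 with age in wild type it moved to 7 with quantile normalisation, 0 with sex, 0 with the 18S control, 15 with the mean of probe sets and 7 with the arrays compared, and to 0 to 23 leaving out 1 array. From 93 with age in Q92 it moved to 195 with the 18S control, 29 with the arrays compared and 31 without both arrays, and to 7 to 87 leaving out 1 array. With 3 arrays per group, a difference that misses the threshold does not show equal levels.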

Other observations

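Other cell types' markers also varied with group, as values that belong to no member. At 18 months the Q92 minus wild-type medians were 0.61 for cortical excitatory neurons (9 of 9 markers higher), -0.20 for interneurons (8 of 11 lower), -0.49 for thalamic and pallidal neurons (7 of 8 lower), -0.23 for astrocytes (9 of 10 lower), -0.26 for microglia (8 of 10 lower), -0.072 for oligodendrocytes (7 of 9 lower), -0.35 for choroid plexus (7 of 9 lower) and -0.16 for vascular cells (9 of 9 lower). At 3 months they were 0.68 for choroid plexus and 0.18 for oligodendrocytes, with 9 of 9 higher in Q92 in each. Single mice carried several of these values. The cortical markers averaged 7.37 and 7.38 in mice Q92_18m_11 and Q92_18m_25 but 6.05 in mouse Q92_18m_66, below all 3 wild-type mice of that age (lowest 6.28). The choroid plexus markers averaged 7.39 in mouse wt_18m_12 against 4.90 and 4.50 in its group, and 7.51 in mouse Q92_3m_439 against 4.89 and 5.17 in its group and 4.75 to 5.05 in wild type at 3 months. Their part in the member values was not tested.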
